A study of Canis lupus familiaris with 34 samples.

Results

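NPY, NRN1, GAP43 and NPTX1 are genes best known from neurons that were measured here in osteosarcoma, the malignant bone-forming tumour, of dogs. They are 4 of the 23988 rows of the deposited table and were named as a set after earlier results of these data were known. GAP43 and NPTX1 were chosen by their difference between cell lines and tumours, and NPY by its spread among tumours; what chose NRN1 is not stated. The levels of all 4 are therefore a description without a test. Total RNA was sequenced in 34 libraries. These are 2 osteosarcoma lines (OSCA.8 and OSCA.78), 1 osteoblast culture (CNOB, cells that lay down bone), 1 metastasis (DOS.6M) and 30 libraries of primary bone tumours. Per the series' design text the lines came from earlier primary tumours. Every library is labelled Golden Retriever, although the design text names Rottweilers as well, and the sources give no age, passage, treatment or site of the metastasis. The tumour libraries titled DOS.46.2 and DOS.46 were averaged as 1 tumour because of their common number, which leaves 29. The lines are 2 isolates and the culture and the metastasis 1 library each, so none of them shows how such samples vary. Nothing states that the 29 come from separate dogs, so p-values measure the spread between these samples.

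Neuropeptide Y, the product of NPY, is a secreted peptide of sympathetic nerves and of the brain that acts on G protein coupled Y receptors, and in mice it is also made by bone cells and restrains bone formation. Neuritin (NRN1) is a small protein anchored in the outer membrane by a lipid, which neurons switch on with activity and which promotes the growth of neurites in rodents. GAP43 lies on the inner face of the membrane of growth cones, the moving tips of growing axons, where protein kinase C phosphorylates it and calmodulin binds it. Neuronal pentraxin 1 (NPTX1) is secreted and gathers AMPA type glutamate receptors at synapses. Levels are FPKM (fragment counts divided by transcript length and by library size), a scale per length on which genes can be set side by side, and differences are on the scale of log2(FPKM + 1).

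As measured, 3 of the 4 genes were expressed in many primary tumours and NPTX1 in few. All 4 passed the filter of at least 1 FPKM in at least 2 libraries. Among 29 tumours, 23 held at least 1 FPKM of NPY, 22 of NRN1, 19 of GAP43 and 3 of NPTX1. NPTX1 was thus low in tumours, with a median of 0.161 FPKM, and its label as a gene expressed in osteosarcoma rests mainly on the lines.

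Summed FPKM per library ran from 479053 to 1418310, and 15328 to 17711 rows were above 0. The osteoblast culture held both the highest sum, beside a median of 623084, and the fewest rows above 0. What part that sum has in comparisons of the culture with tumours was not tested. Read counts were not used here, and ratios between low values place the FPKM worth of 1 fragment between 0.763 and 2.04 times the median library. A value of 0 in this table can be a failed estimate. The housekeeping gene GAPDH was listed at 0 in 32 of 34 libraries and PGK1 in 34.

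For the neuropeptide NPY, OSCA.8 gave 11.9 FPKM and OSCA.78 gave 38.6. It was listed at 0 in the osteoblast culture, and was 18.9 in the metastasis. In primary tumours it ran from 0.0876 in DOS.75 over a median of 16.1 to 505 in DOS.76. The lines and the metastasis lay inside the range of the tumours, and the osteoblast value lay below all 29. The mean in tumours was 44.0 ± 93.9 FPKM (SD, n = 29), and DOS.76 alone held 39.6% of the NPY summed over the tumours. The next tumours were DOS.32 at 107 and DOS.73 at 87.9 FPKM. On the log2 scale the lines differed from the tumours by 0.69 on average, less than the SD among tumours of 2.38. With OSCA.8 as the only line the difference was -0.12, and with OSCA.78 as the only line it was 1.503.

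For the membrane-anchored neuritin NRN1, OSCA.8 gave 32.8 FPKM and OSCA.78 gave 19.5. It was listed at 0 in the osteoblast culture, and reached 118 in the metastasis. Primary tumours ran from 0.0201 in DOS.101 over a median of 5.45 to 78.0 in DOS.75 (mean 14.8 ± 20.04, SD, n = 29). The metastasis lay above all 29 tumours, the lines lay inside their range, and the osteoblast value lay below all of them. DOS.6 followed DOS.75 at 59.3 FPKM, and DOS.116 came next at 48.5. The lines differed from the tumours by 1.89 on the log2 scale, about the size of the SD among tumours of 1.92.

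For the growth cone protein GAP43, OSCA.8 gave 71.2 FPKM and OSCA.78 gave 123. It stood at 2.45 in the osteoblast culture and at 0.387 in the metastasis. Primary tumours ran from 0.120 in DOS.70 over a median of 2.56 to 29.5 in DOS.114 (mean 5.14 ± 7.32, SD, n = 29). Both lines lay above every tumour, while 15 tumours were higher than the osteoblast culture and 24 higher than the metastasis. A second tumour, DOS.75, stood near the top at 27.03 FPKM, and the third, DOS.85, at 12.9. The difference between lines and tumours was 4.66 on the log2 scale, beside an SD among tumours of 1.398.

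For the secreted pentraxin NPTX1, OSCA.8 gave 14.7 FPKM and OSCA.78 gave 43.6. It stood at 0.573 in the osteoblast culture and at 0.748 in the metastasis. Primary tumours ran from 0.0124 in DOS.70 to 3.30 in DOS.11, with DOS.116 at 2.72 and DOS.78 at 1.70 as the only others at or above 1 FPKM (mean 0.451 ± 0.787, SD, n = 29). Both lines lay above every tumour, and the osteoblast culture and the metastasis lay inside the range of the tumours. The difference between lines and tumours was 4.31 on the log2 scale, beside an SD among tumours of 0.53. Over all rows past the filter, both lines lay above every tumour in 4.04% and below every tumour in 7.3%, a contrast from which GAP43 and NPTX1 were chosen.

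**Figure D1:**
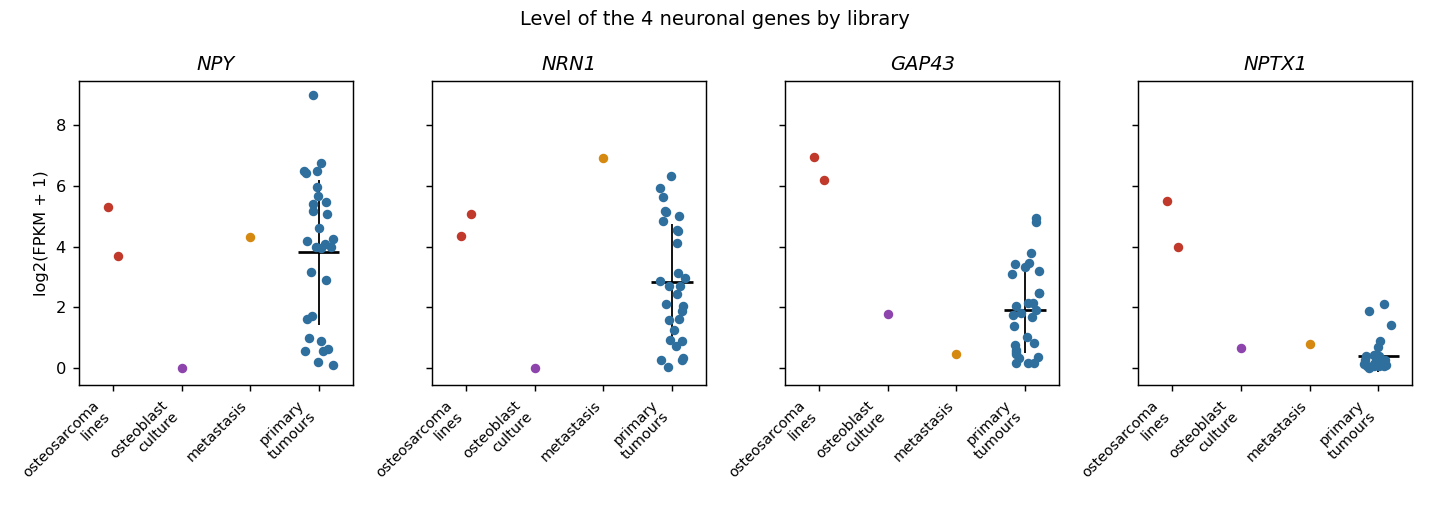
Level of each gene as log2(FPKM + 1) in each library, with lines, osteoblast culture, metastasis and 29 primary tumours from left to right; each point is 1 library or tumour, and the bar and whisker give the mean and SD of the tumours. Both lines sit above every tumour for GAP43 and NPTX1 and inside the tumours for NPY and NRN1.

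The order of the groups thus differed by gene. By level, the metastasis came first for NRN1, and the lines came first for GAP43 and NPTX1, while for NPY the highest tumour exceeded every other library. The osteoblast culture was the lowest library for NPY and NRN1, where 19.5% of all rows had the osteoblast culture below every tumour. For those genes it was listed at 0, which in this table does not show absence. The metastasis lay above every tumour in 5% of all rows and below every tumour in 3.53%. The osteoblast culture, the library with the highest summed FPKM, lay above every tumour in 22%.

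Between neighbours in the order of the tumours the steps were often small. DOS.46.2 and DOS.46 gave 17.3 and 18.7 FPKM of NPY, 0.863 and 0.905 of NRN1, 0.866 and 0.724 of GAP43, and 0.0739 and 0.0909 of NPTX1. The log2 differences within that pair were at most 0.115 in size. Of the 28 steps between neighbouring tumours, 14 for NPY, 6 for NRN1, 15 for GAP43 and 17 for NPTX1 were no larger than the step within this pair. By SD among tumours, NPY ranked 110, NRN1 205, GAP43 511 and NPTX1 7867 among 15165 rows.

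The libraries whose titles share a number allow the genes to be set side by side, although the labels do not say that a number marks a dog. NPY was 11.9 FPKM in the line OSCA.8 and 14.7 in the tumour DOS.8, and 38.6 in OSCA.78 and 34.9 in DOS.78. NRN1 stood at 32.8 in OSCA.8 and 34.0 in DOS.8, and at 19.5 in OSCA.78 and 21.96 in DOS.78. For these genes the line and the tumour of the same number differed by -0.28 and 0.14 (NPY) and by -0.05 and -0.16 (NRN1) on the log2 scale. Of the 28 other tumours, 1 was nearer to OSCA.8 in NPY than DOS.8 was, 1 nearer to OSCA.78 than DOS.78, and 0 were nearer in NRN1 for either line.

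GAP43 and NPTX1 were higher in each line than in the tumour of the same number. GAP43 stood at 71.2 FPKM in OSCA.8 against 8.97 in DOS.8, and at 123 in OSCA.78 against 0.273 in DOS.78, differences of 2.86 and 6.61 on the log2 scale. NPTX1 stood at 14.7 in OSCA.8 against 0.352 in DOS.8, and at 43.6 in OSCA.78 against 1.70 in DOS.78, differences of 3.54 and 4.05. For GAP43, 5 other tumours were nearer to OSCA.8 and 25 nearer to OSCA.78 than the tumour of the same number, and for NPTX1 5 and 2 were. OSCA.8 lay at least 1 above DOS.8 on the log2 scale in 10.3% of rows and at least 1 below it in 10.1%. OSCA.78 lay at least 1 above DOS.78 in 16.3% and at least 1 below it in 18%. Both lines lay within 0.5 of the tumour of the same number in 24.4% of all rows, and in 13.3% of the 1517 rows with the largest SD among tumours, to which NPY, NRN1 and GAP43 belong. The distance of 0.5 was set after the values were seen, and no test was made on single libraries.

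For the metastasis DOS.6M and the tumour DOS.6, NPY was 18.9 against 16.1 FPKM and NPTX1 0.748 against 0.314. NRN1 stood at 118 in DOS.6M against 59.3 in DOS.6, a difference of 0.98 on the log2 scale, and GAP43 at 0.387 in DOS.6M against 2.35 in DOS.6, a difference of -1.27. Other tumours nearer to DOS.6M than DOS.6 numbered 2 for NPY, 1 for NRN1, 13 for GAP43 and 6 for NPTX1. DOS.6M lay at least 1 below DOS.6 in 5.16% of rows and at least 1 above it in 3.9%. DOS.6 ranked 2 among the 29 tumours in NRN1.

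**Figure D2:**
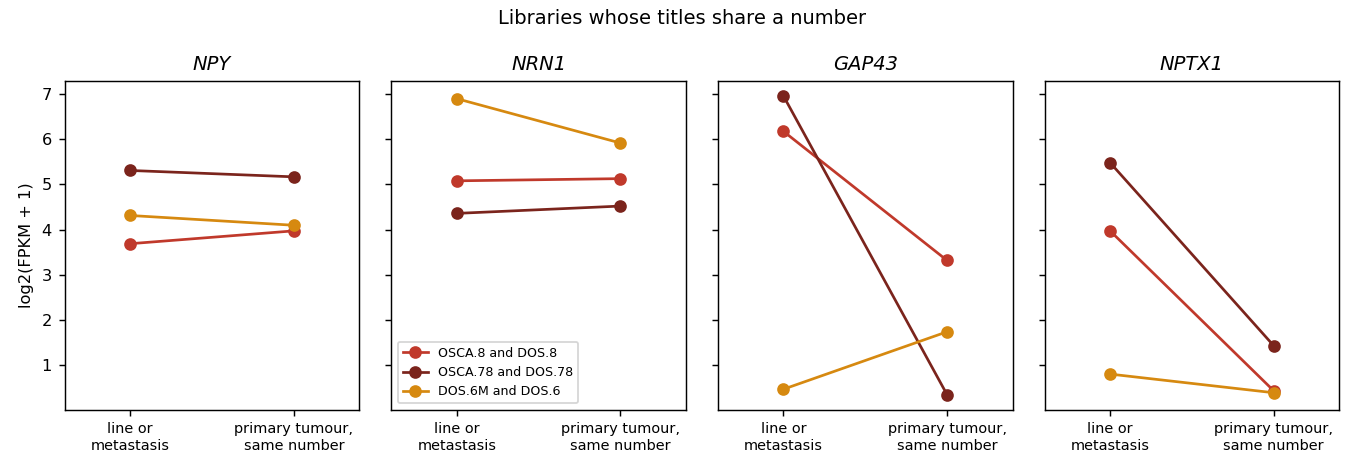
Level as log2(FPKM + 1) in the line or metastasis (left) and in the primary tumour whose title has the same number (right), 1 line of the plot for each of the 3 pairs. The 2 pairs with lines are nearly level for NPY and NRN1, and drop from line to tumour for GAP43 and NPTX1.

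Across primary tumours each of the 4 genes had its highest level in a different tumour. DOS.75 had the lowest NPY, the highest NRN1 and the second highest GAP43. DOS.76 had the highest NPY and ranked 28 of 29 in NRN1. DOS.70 had the lowest GAP43 and the lowest NPTX1 and ranked 9 in NPY. With levels of 10 FPKM for NPY and NRN1, 5 for GAP43 and 1 for NPTX1, chosen after the values were seen, 7 tumours reached none of them, 10 reached 1, 7 reached 2, 5 reached 3 and 0 reached all. Both NPY and NRN1 reached theirs in 8 tumours, 10 reached only that of NPY and 2 only that of NRN1. All 3 tumours that reached the level of NPTX1 also reached that of NRN1, and none of the 8 that reached that of GAP43 did so for NPTX1. These overlaps were not compared with those of unrelated genes, so the counts do not show that the genes avoid each other.

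The 6 pairs of genes were tested by correlation over the 29 tumours, each with a two-sided permutation test and Benjamini-Hochberg adjustment over the 6. NRN1 and NPTX1 gave the largest values, with Pearson's r = 0.447 (p = 0.0118, adjusted 0.0707) and Spearman's rho = 0.591 (p = 0.000830, adjusted 0.00498). Without DOS.6 and DOS.75, the tumours farthest from the median of NRN1, r was 0.513. By rank the relation passed the threshold of 0.05, and by Pearson's r it missed it. NRN1 and GAP43 gave r = 0.355 and rho = 0.329 (permutation p = 0.0593 and 0.0822, adjusted 0.178 and 0.247), with r = 0.271 when the same tumours were left out.

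No relation of NPY with the others passed. Its r was 0.02 with NRN1 (permutation p = 0.915, adjusted 0.974), -0.04 with GAP43 (permutation p = 0.847, adjusted 0.974) and -0.07 with NPTX1 (permutation p = 0.739, adjusted 0.974). The values of rho were 0.03, 0.00246 and -0.07 (permutation p = 0.871, 0.991 and 0.733, adjusted 0.991 each). Without DOS.75 and DOS.76, its lowest and its highest tumour, r was 0.286 with NRN1, 0.132 with GAP43 and -0.03 with NPTX1. GAP43 and NPTX1 gave r = 0.00647 and rho = 0.243 (permutation p = 0.974 and 0.201, adjusted 0.974 and 0.402), and r = 0.0503 without DOS.75 and DOS.114.

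**Figure D3:**
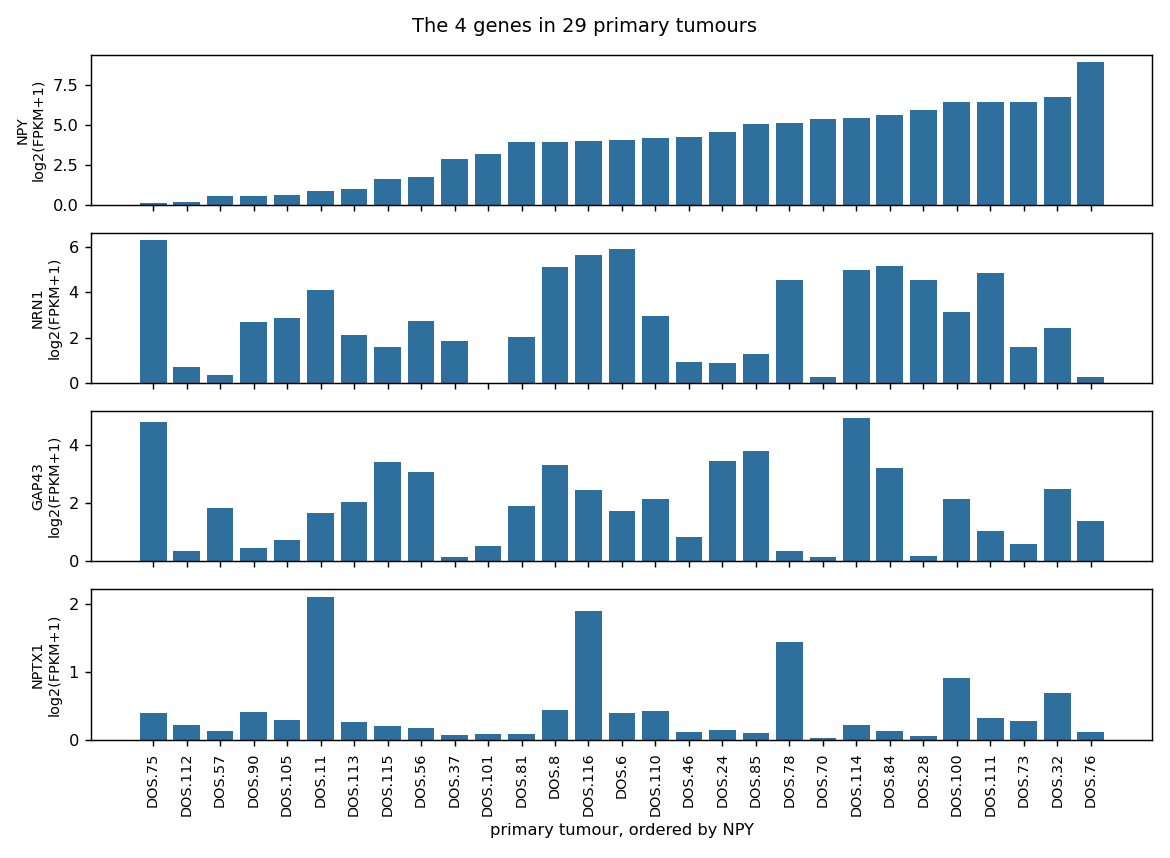
Level of the 4 genes as log2(FPKM + 1) in each of 29 primary tumours, ordered from low to high NPY, 1 bar for each tumour and a separate vertical scale for each gene. The bars of NRN1, GAP43 and NPTX1 do not climb with those of NPY (r = 0.02, -0.04 and -0.07), and 3 tumours reach 1 FPKM of NPTX1.

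The cell types whose genes moved with each of the 4 were then looked for in the bulk RNA. In such RNA, more cells of a type and more RNA per cell cannot be told apart. Scores of 13 cell type lists (mean z-score of the genes past the filter, without the 4) and 4 measures of library quality gave 68 relations, adjusted together, of which 6 passed by Pearson's r and 7 by Spearman's rho. DOS.100 and DOS.32 had close scores in several lists, such as pan-neuronal (0.583 and 0.592) and bone matrix genes (0.795 and 0.801). Of the 13 lists, hypoxia was the one in which their scores lay furthest apart (-0.451 and -0.803). They held 85.0 and 107 FPKM of NPY. Whether they share a dog was not tested, and each counted as 1 tumour in the permutation p-values. If they do, those p-values count that dog more than once. Unlike DOS.46 and DOS.46.2 they were not averaged, and no relation, such as that of NPY with bone genes, was recomputed with them averaged.

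NPY rose with genes of bone. Across 29 tumours it correlated with the osteocyte score at r = 0.623 (permutation p = 0.000440, adjusted 0.00997) and rho = 0.664 (adjusted 0.00367), and with the bone matrix score at r = 0.584 (permutation p = 0.00104, adjusted 0.0177) and rho = 0.648 (adjusted 0.00367). Osteocytes are the cells buried in mineralised bone. Without the 2 tumours farthest from the median score, r was 0.617 and 0.564. Among the 7 osteocyte genes, 5 had a positive r with NPY, against 49.7% of all rows.

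Single bone genes showed the range of this relation. DMP1, a matrix protein of osteocytes, ran from 0.306 to 762 FPKM over the tumours and had r = 0.694 with NPY. PHEX, an enzyme of phosphate balance, had r = 0.546, the WNT inhibitors DKK1 and SOST 0.473 and 0.341, and FBLN7 0.203. KERA at -0.02 and the phosphate hormone FGF23 at -0.07 were near 0. All 8 bone matrix genes had a positive r, with the matrix protein SPARC lowest at 0.235, the bone sialoprotein IBSP at 0.572 and osteopontin SPP1 at 0.468. The lines held NPY beside levels of IBSP below every tumour and of DMP1 below 27 (OSCA.8) and 29 (OSCA.78) of the 29 tumours. OSCA.8 had 1.96 FPKM of IBSP and 0.398 of DMP1 beside 11.9 of NPY, and OSCA.78 had 0.717 of IBSP and 0.0447 of DMP1 beside 38.6 of NPY, whereas IBSP was at least 48.6 FPKM in every tumour. Other bone genes varied. FBLN7 stood at 113 and 79.0 FPKM in the lines against a tumour median of 24.5, and SOST at 0.336 and 34.8 against 6.84. SPARC was below the tumour median in both lines, at 3105 and 1431 against 5819, with the lowest tumour at 2194.

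NRN1 rose with genes of neurons. Its correlation with the pan-neuronal score was r = 0.687 (permutation p = 7.0e-05, adjusted 0.00476) and rho = 0.673 (adjusted 0.00367), and r = 0.661 without DOS.78 and DOS.8. Of the 17 genes in that score, 16 had a positive r with NRN1, against 48.9% of all rows, led by the neurofilament gene NEFH at 0.682 and the neuronal enolase ENO2 at 0.531. With the nerve sheath score NRN1 gave r = 0.508 and rho = 0.519 (permutation p = 0.00535 and 0.00424, adjusted 0.0520 and 0.0412), and r = 0.457 without DOS.24 and DOS.85. That relation passed by rank only.

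NPTX1 rose with the sympathetic neuron score (r = 0.624, permutation p = 0.000220, adjusted 0.00748, rho = 0.718, adjusted 0.00136), the pan-neuronal score (r = 0.529, permutation p = 0.00391, adjusted 0.0443, rho = 0.663, adjusted 0.00367) and the nerve sheath score (r = 0.4999, permutation p = 0.00271, adjusted 0.0369, rho = 0.576, adjusted 0.0129). With the 2 tumours most distant from each score's median left out, r was 0.607, 0.528 and 0.488. The leading genes were the RNA-binding protein ELAVL3 (r = 0.856), the transcription factor GATA3 (0.708) and the adhesion molecule L1CAM (0.625). Of the genes in these lists 7 of 8 sympathetic, 14 of 17 pan-neuronal and 9 of 13 nerve sheath genes had a positive r, with medians of 0.369, 0.198 and 0.166, against 48.4% of all rows. The myelin genes CNP and MBP had r = -0.313 and -0.246. Without the 3 tumours that held at least 1 FPKM of NPTX1, r was 0.596, 0.611 and 0.542 over 26 tumours. After quantile normalisation none of these 3 relations passed (r = 0.543, 0.453 and 0.460, permutation adjusted p = 0.0668, 0.137 and 0.112). Over the 26 tumours the macrophage score passed as well, by Pearson's r only (r = -0.620, permutation adjusted p = 0.0211, rho = -0.305, adjusted 0.434). Without DOS.100 and DOS.32 that r was -0.146. These tumours ranked 4 and 5 in NPTX1, at 0.876 and 0.610 FPKM, and the nerve relations were not recomputed without them.

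Among defining markers of nerve, TH, SNAP25 and SOX10 were low in the tumours. In primary tumours the catecholamine enzyme TH reached at most 0.0725 FPKM. The synaptic gene SNAP25 had a tumour median of 0 and a highest value of 2.04, and the glial regulator SOX10 a highest value of 1.72. S100B, which nerve sheath shares with cartilage, ran from 0 to 77.2. Summed over the 24 pan-neuronal genes in the table, OSCA.8 held 69.0 FPKM and OSCA.78 held 115, beside 44.7 in the osteoblast culture, 78.6 in the metastasis, and 34.3 to 116 in the tumours. A tumour median of at least 1 FPKM was seen for 5 of those 24, for 2 of 13 sympathetic genes and for 10 of 19 nerve sheath genes. What part nerve tissue has in the levels of the 4 genes was not tested.

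GAP43 passed with no score. Its nearest were the cartilage score (r = 0.355, permutation p = 0.0590, adjusted 0.294) and the pan-neuronal score (r = 0.345, permutation p = 0.0670, adjusted 0.294), and its largest r was with the share of a library taken by its 10 most abundant genes (r = 0.389, permutation p = 0.0368, adjusted 0.209). No measure of library quality passed with any of the 4 genes. The largest of these was NPTX1 with the number of rows above 0 (r = 0.396, permutation p = 0.0336, adjusted 0.209). For that relation rho was 0.451 (permutation adjusted p = 0.112), and r was 0.547 without DOS.6 and DOS.76. The labels name no batch, so no relation could be recomputed within batches.

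**Figure D4:**
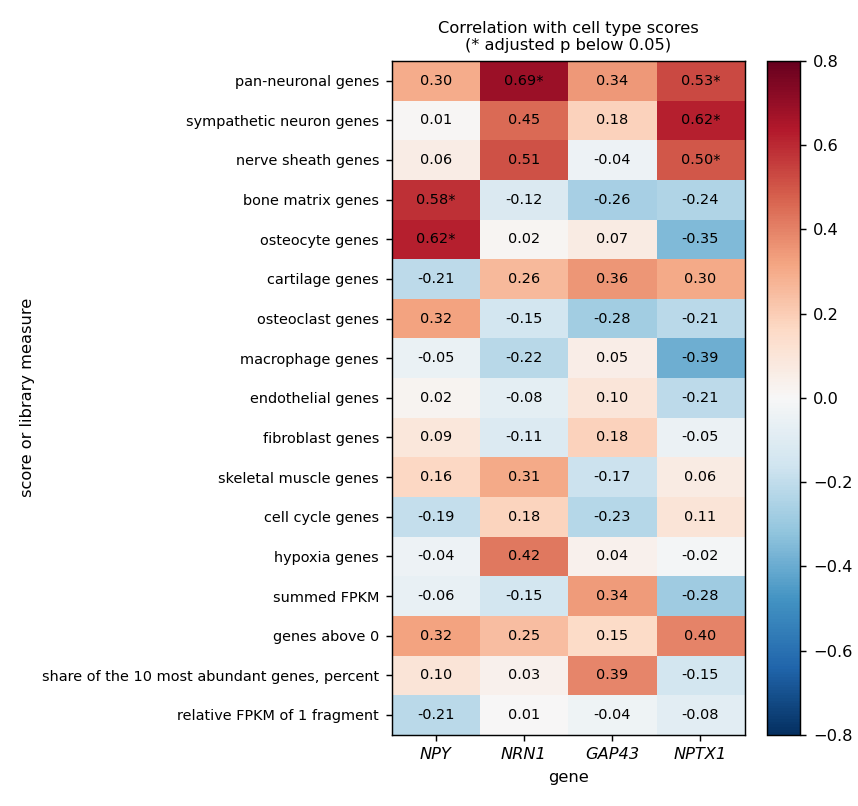
Pearson's r across 29 primary tumours between each of the 4 genes (columns) and each cell type score or library measure (rows), with a star where the permutation p adjusted over 68 relations is below 0.05. NPY carries stars for bone matrix (0.58) and osteocyte genes (0.62), NRN1 for pan-neuronal genes (0.69), and NPTX1 for the 3 nerve lists.

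The single genes most like each of the 4 were ranked by Pearson's r of log2(FPKM + 1) over the 29 tumours, among 11845 genes with a symbol. For NPY these were MAP2 (0.816), WIPF3 (0.797), ELL2 (0.784), AK5 (0.779) and PLA2G5 (0.765). MAP2, a microtubule protein of dendrites, ran from 0.855 to 32.2 FPKM in the tumours and stood at 7.06 in OSCA.8, 7.38 in OSCA.78 and 0.454 in the osteoblast culture. Least like NPY were RHOBTB3 (-0.76), DDO (-0.72) and EVA1A (-0.70).

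For NRN1 the most alike were SV2C (0.756), a synaptic vesicle protein, the transcription factor TFAP2A (0.739), the vesicular zinc transporter SLC30A3 (0.738), SPATC1L (0.738) and beta-synuclein SNCB (0.731). The least alike were ACADM (-0.59), BROX (-0.58) and ALDH9A1 (-0.58). For GAP43 the values were lower, with SLC35G2 (0.684), ARMCX2 (0.664), HSD17B14 (0.656), TNFAIP6 (0.652) and SNX16 (0.651), and HNRNPM (-0.66), ATP10D (-0.65) and PAQR4 (-0.63) at the other end.

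For NPTX1 the most alike were the adenylyl cyclase ADCY1 (r = 0.897), the homeobox gene NKX6-1 (0.863), ELAVL3 (0.856), MPPED1 (0.837) and the protocadherin PCDH9 (0.827). Their ranks followed NPTX1 less closely, with rho from 0.418 to 0.601, and all 5 were listed at 0 in at least 1 tumour and reached at most 2.94 FPKM. Least alike were CSNK1G3 (-0.76), VDAC1 (-0.71) and PRRC1 (-0.68).

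The genes around the 4 were compared between the lines and the 29 tumours with limma over all 15165 rows. Of 98 measured genes in 7 pathway lists, without the 4 themselves, 15 rose in the lines, 5 fell and 78 did not pass. That is 15.3% higher and 5.10% lower, beside 8.49% of all rows called higher and 7.92% called lower. The same shares of all rows stand beside the counts of single lists below. The median difference over the 98 was 0.29, beside -0.05 over all rows. Upper quartile scaling gave 11 higher and 6 lower, with a median of -0.14 over all rows, and 962 higher and 1388 lower over all rows against 1288 and 1201 in the main scaling. The calls lean on OSCA.78: with OSCA.8 as the only line, 2 rose and 0 fell, and with OSCA.78 as the only line 13 rose and 3 fell. Over all rows the calls dropped as well, to 199 higher and 145 lower of 15165 with OSCA.8 alone and to 979 and 1019 with OSCA.78 alone. With 1 line left, that line is assumed to vary like the tumours.

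Around NPY few genes could be measured. Of 15 ligands, receptors and enzymes, 8 are in the table and 5 passed the filter, of which 1 fell and none rose. FAP, a serine protease of the family of DPP4, fell by 3.14 (SE 0.60 on that log2 scale, adjusted p = 4.4e-04 in limma). OSCA.8 held 9.12 FPKM of it and OSCA.78 held 0.334, while the tumours held 9.98 to 90.9. Leaving out OSCA.78 gave -1.68 (limma adjusted p = 0.322). FAP is also a fibroblast marker and stands in that list, where POSTN, a matrix protein of stromal cells, fell by 5.50 (limma adjusted p = 0.0166) and the median difference of the 8 genes was -2.08; the part of fibroblasts in the value of FAP was not tested. DPP4, which trims NPY and so changes its receptor preference, stood at 1.04 and 0.597 FPKM in the lines, 3.33 in the osteoblast culture and 2.16 in the metastasis, against a tumour median of 23.6 (0.371 to 127). Its difference of -3.32 missed the threshold (limma adjusted p = 0.0575). The amidating enzyme PAM, which finishes peptide hormones, stood at 181 and 79.8 FPKM in the lines and 60.3 to 230 in the tumours (0.21, limma adjusted p = 0.750). The receptor NPY5R was at 0.718 and 0.350 FPKM in the lines, listed at 0 in the osteoblast culture, at 0.158 in the metastasis, and at most 0.243 in the tumours. It did not pass the filter, and no row carries the symbol NPY1R or NPY2R, so these receptors could not be assessed by name. The receptor NPY4R passed the filter. It was listed at 0 in both lines, against a tumour median of 0.506 and a highest tumour of 5.70 FPKM. Its difference of -0.67 was not called (limma adjusted p = 0.301).

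Among 12 secretory granule genes, 2 rose and 1 fell. RAB3A, a small GTPase of vesicle release, rose by 1.63 (SE 0.38, limma adjusted p = 0.0033), with 11.3 and 22.3 FPKM in the lines, both above the highest tumour at 9.34. SCG3, a protein of peptide granules, fell by 2.10 (limma adjusted p = 0.0056). Without OSCA.78 neither passed (limma adjusted p = 0.319 and 0.241, at 1.17 and -1.83). Among the 9 genes of the neuritin and plasticity list, 1 fell and none rose. MEF2C, an activity-regulated transcription factor, changed by -2.24 (limma adjusted p = 0.0033); leaving out OSCA.78 gave -1.64 (limma adjusted p = 0.310).

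The neighbours of GAP43 were higher in the lines where they passed. Of 23 growth cone and neurite genes, 5 rose and none fell, with a median difference of 0.79. DPYSL5, which regulates dendrites, rose by 2.72 (SE 0.53, limma adjusted p = 5.4e-04), from the same family CRMP1 by 2.37 (limma adjusted p = 0.0210) and DPYSL3 by 2.24 (limma adjusted p = 3.4e-04). The neuronal ubiquitin hydrolase UCHL1 rose by 2.34 (limma adjusted p = 0.0359) and the tubulin regulator STMN2 by 1.75 (limma adjusted p = 0.0330). OSCA.8 held 340 FPKM of DPYSL3, OSCA.78 held 543 and the osteoblast culture 1067, all above the highest tumour at 251. Leaving out OSCA.78, none of the 4 largest passed (limma adjusted p = 0.138, 0.296, 0.0822 and 0.562 for DPYSL5, CRMP1, DPYSL3 and UCHL1, at 2.13, 2.32, 1.91 and 1.68). Without OSCA.8, CRMP1 and UCHL1 missed it too (limma adjusted p = 0.106 and 0.0612). BASP1, another protein of the growth cone membrane, stood at 110 and 173 FPKM in the lines against 4.40 to 245 in the tumours and did not pass (1.45, limma adjusted p = 0.151).

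Relatives and partners of NPTX1 showed calls in the same direction. Of 8 pentraxin and AMPA receptor genes, 3 rose and none fell, beside 8.49% of all rows called higher and 7.92% called lower. PTX3, another pentraxin of the list, moved the other way by -2.62 without passing (limma adjusted p = 0.0796). It stood at 24.6 and 8.94 FPKM in the lines against a tumour median of 97.5. NPTX2, a paralog also known as a neuronal pentraxin, rose by 1.92 (SE 0.65, limma adjusted p = 0.0396). OSCA.8 held 4.01 FPKM of it and OSCA.78 held 21.3, while the tumours held 0.0539 to 10.4. The pentraxin receptor NPTXR rose by 1.90 (SE 0.56, limma adjusted p = 0.0186), with 13.7 and 31.6 FPKM against 1.26 to 21.6. The AMPA receptor subunit GRIA1 rose by 1.65 (limma adjusted p = 0.0155), with 1.13 and 10.1 FPKM against 0.0111 to 6.27. For these genes 6, 1 and 5 tumours exceeded OSCA.8, and none passed when OSCA.78 was left out (limma adjusted p = 0.756, 0.508 and 0.816, at 0.84, 1.33 and 0.46).

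Among 31 neurotrophin and guidance genes, 5 rose and 1 fell. The neurotrophin receptor NGFR rose by 3.49 (SE 0.66, limma adjusted p = 3.7e-04). OSCA.8 held 15.03 FPKM of it and OSCA.78 held 81.3, while the tumours held 0.108 to 11.4. The guidance ligand SEMA3E rose by 3.14 (SE 0.41, limma adjusted p = 2.4e-06), with 2.40 and 32.4 FPKM against at most 2.09. GFRA1, the receptor for the growth factor GDNF, rose by 2.44 (SE 0.32, limma adjusted p = 2.6e-06), with 10.8 and 2.88 FPKM against at most 1.51. The plexin PLXND1, which binds SEMA3E, fell by 1.69 (limma adjusted p = 0.0411, and 0.361 and 0.170 without OSCA.78 and OSCA.8 in turn). NTF3 and netrin NTN1 were the others that rose. Without OSCA.78 the calls of SEMA3E and GFRA1 held (limma adjusted p = 0.0427 and 3.1e-06) and that of NGFR did not (0.203, at 2.31).

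REST, the repressor that keeps neuronal genes silent outside neurons, did not pass the test. OSCA.8 held 8.66 FPKM of it and OSCA.78 held 4.25. It stood at 3.59 in the osteoblast culture and 4.30 in the metastasis, against 1.45 to 24.2 in the tumours (0.04, SE 0.46, limma adjusted p = 0.962). Among 11 genes of its complex, the corepressor RCOR3 fell by 1.06 (limma adjusted p = 0.0067, and 0.0867 and 0.107 without OSCA.78 and OSCA.8 in turn), and none rose.

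The neuron and nerve lists, which share STMN2 with the growth cone list, held further calls. Of 17 pan-neuronal genes 7 rose, of 8 sympathetic genes 4 and of 13 nerve sheath genes 4, and none fell. Over all rows 8.49% were called higher. NEFL, NEFM and ELAVL3 among the 7, and CHRNB4 among the 4 sympathetic genes, passed the filter only through the lines and so had to differ; their calls are no evidence. NEFL, a neurofilament gene, stood at 4.10 FPKM in OSCA.8, 12.2 in OSCA.78 and at most 1.95 in the tumours, and CHRNB4, a nicotinic receptor subunit, at 2.12, 4.42 and at most 0.701. Among the others, the nicotinic receptor subunit CHRNA3 rose by 2.58 (limma adjusted p = 4.5e-04) and the receptor kinase ERBB3 by 2.80 (limma adjusted p = 3.8e-07). Leaving out OSCA.78 kept ERBB3 past the threshold (limma adjusted p = 0.00385). The calls of ENO2, SLC17A7, CHRNA3, HAND2, GATA3, CADM4, FOXD3 and CNP were lost (limma adjusted p = 0.319, 0.488, 0.159, 0.312, 0.123, 0.295, 0.365 and 0.482), and those of ENO2, HAND2, CADM4 and FOXD3 were also lost without OSCA.8 (0.104, 0.0534, 0.0834 and 0.0741). TH and S100B were listed at 0 in both lines, which in this table does not show absence, and SNAP25 stood at 1.04 and 0.119 (limma adjusted p = 0.448).

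Lists of other cell types differed in their calls. All 12 macrophage genes and 9 of 11 endothelial genes fell in the lines, with median differences of -4.83 and -3.53, and 5 of 8 bone matrix genes fell with a median of -3.46, beside 7.92% of all rows called lower. Of 8 fibroblast genes 2 fell, of 8 cartilage genes 1 rose and 1 fell, of 6 hypoxia genes 1 fell, and 0 of 7 osteocyte, 8 osteoclast and 11 skeletal muscle genes passed limma's threshold in either direction. Of 16 cell cycle genes 4 rose (MKI67, MCM5, PLK1 and CDC20), and none of the 4 passed without OSCA.78 (limma adjusted p = 0.717, 0.710, 0.716 and 0.521). The part of these cell types in the differences of the neuronal genes was not tested.

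**Figure D5:**
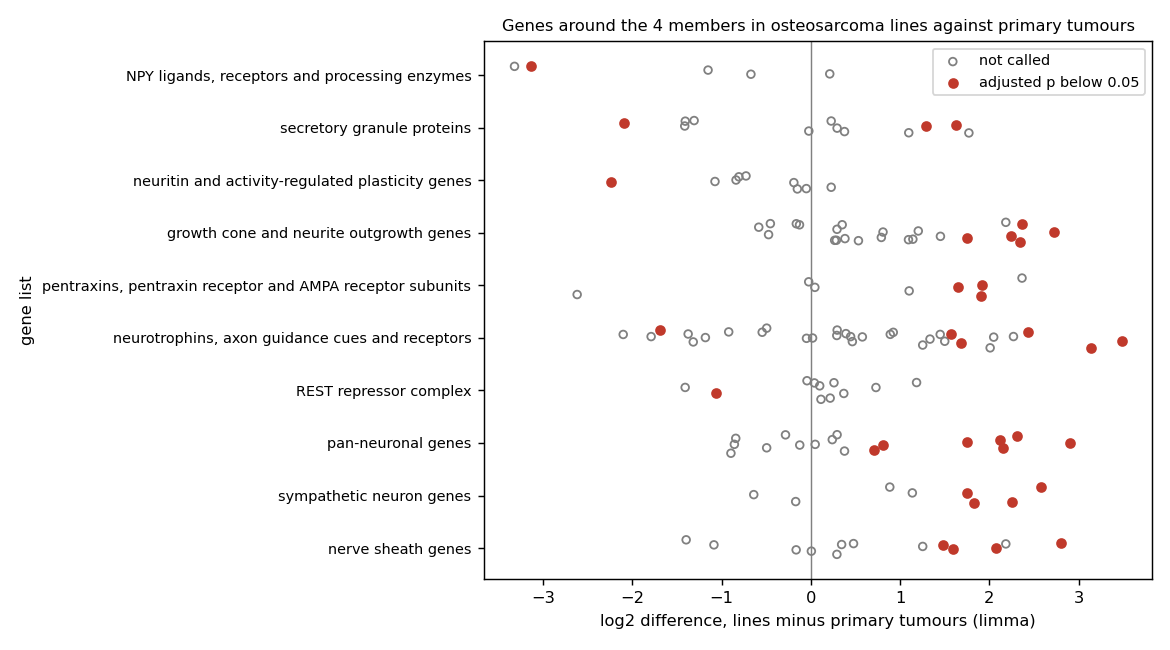
Difference on the log2 scale, lines minus primary tumours, of each measured gene in the 7 pathway lists and the 3 neuron and nerve lists, the 4 genes left out; filled points passed limma's adjusted p of 0.05. The filled points of the growth cone, pentraxin, pan-neuronal, sympathetic and nerve sheath lists all lie to the right of 0.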

How the data were processed

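The table of the whole series gives 1 value per gene and library, with no unit in its header. Values were read as FPKM as deposited by the authors, since Cufflinks 2.2.1 is named, per the submitters' processing notes, together with FastQC 0.11.2, TopHat2 2.0.13 and the build canFam3. No source used here gives the annotation, the parameters or any masking. Gene names were used as given. Coordinates and sequences are not used here, since the reference table is of another build. Of 14335 symbols, 13111 are in it.

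The 15165 rows that reached 1 FPKM in 2 or more libraries entered the tests, and 1 FPKM was added before log2. DOS.46 and DOS.46.2 were averaged on that scale. Lines were compared with tumours in limma 3.58.1 (R 4.3.3; trend and robust, two-sided, Benjamini-Hochberg over all rows, threshold 0.05). On simulated data for this comparison (15165 genes) limma recovered 76 of 100 genes changed by 2 and 98 of 100 changed by 4 on the log2 scale. Each gene was drawn there on its own from a normal distribution with the mean and SD of the tumours, for the lines too. Lines that vary unlike tumours and genes that vary together are not covered by it. Correlations used 100000 permutations (Python 3.11.15, numpy 2.4.6). The 4 genes and all lists were chosen with earlier results of these data known. Named genes are, per list, up to 4 with the largest called change (2 by adjusted p where none passed), the 5 most and 3 least alike genes, and fixed receptors, paralogs and markers. Others (STMN2, NTF3, NTN1, PAM, NPY4R, PTX3 and single genes of the scores) were chosen after their values were seen. A few genes that the rule names are not reported here. Depth in reads is unknown, so no counting interval was computed. Alternatives were pseudocount, scaling, filter, moderation, the handling of DOS.46, leaving out each line, and pairing by title number.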

Additional observations from a re-analysis of the deposited data

How the results depend on the processing

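Over the alternatives, 77 values that answer a comparison and 33 of single relations kept their direction and side of the threshold, or moved by less than the spread; those that changed follow, and the cause was not tested. With a pseudocount of 0.1 FPKM, 9 pathway genes fell in the lines (12 rose), the difference of NPTX1 was 6.25, NRN1 and NPTX1 passed by Pearson's r (0.527, permutation adjusted p = 0.0173), and r of NPY with NRN1 was -0.00131. After quantile normalisation, r of GAP43 with NPTX1 was -0.0601, and 3 of the 68 score relations passed. Without the 3 tumours with the highest NPTX1, an alternative chosen after seeing the data, r of NPY with NPTX1 was 0.0937. Leaving out a line gave 2 to 13 pathway genes higher and 0 to 3 lower, differences of -0.116 to 1.503 for NPY and of 3.56 to 5.06 for NPTX1. With the title number as a replicate block (OSCA.8 and OSCA.78 against DOS.8 and DOS.78) 0 pathway genes passed in either direction, as did 0 of all rows, in a fit with 4 libraries. The paired difference was -0.0715 for NPY and -0.105 for NRN1. Only 2 pairs of a line and a tumour share a number. Deviations from the tumour mean correlated across genes at 0.297 for OSCA.8 with DOS.8 (0 of 28 other tumours higher) and 0.239 for OSCA.78 with DOS.78 (1 of 28 higher). For DOS.46.2 with DOS.46 the value was 0.744 and for DOS.6M with DOS.6 it was 0.510 (0 of 28 higher each). The main comparison took lines and tumours as independent. Upper quartile scaling moved the median over all rows to -0.14 and gave 11 pathway genes higher and 6 lower. Without the filter 15 of 113 rose and 4 fell. The balance over all rows was 1288 higher and 1201 lower, against 1121 and 1639 with the smaller pseudocount and 962 and 1388 with upper quartile scaling.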
